A study of Rattus norvegicus with 6 samples.

Results

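PIWI-interacting RNAs (piRNAs) are small RNAs that guide PIWI proteins, best known from the germline, where they silence transposons. Somatic tissues hold far less of the pathway, and some sequences filed in databases as piRNAs coincide with fragments of abundant non-coding RNAs such as tRNA and rRNA. The probes described here are the 100 brightest piRNA probes on arrays of rat pancreatic islet RNA. They were taken from the 7721 piRNA probes, of 39727 on the array, whose signal the scanner software called well above background on all 6 arrays. On each array the log2 processed signal was centred on its median over those 7721 probes, and the 100 probes with the highest mean over the 6 arrays were kept, 1.30% of the 7721. The probes were chosen by this measured signal, so their brightness is a description and was not tested. The strain comparison was not part of the choice, which averaged over both strains.

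Islets came from Goto-Kakizaki (GK) rats and from Wistar rats aged 3 months, with 3 samples of each strain. The GK rat is a non-obese model of type 2 diabetes that was bred from Wistar stock, and the Wistar rat served as the control. Total RNA was labelled with the dye Cy3 at its 3' end, and 1 sample was hybridised to each array. The file headers used here name no slide, but GK 1 and all 3 Wistar arrays share a scan date, here called scan 1. GK 2 and GK 3 share a later date, here called scan 2, so strain and scan date overlap in part. Whether each scan was a slide of its own is inferred, and was not stated. The labels describe the islets as extracted individually but do not say how many animals gave a sample, so p-values measure the spread between these samples. None of the 20 marker transcripts and 7 marker miRNAs of islet, exocrine and other cells that were looked up had a probe, so the cell makeup of the samples could not be checked. In whole islets, more cells of a type and more RNA per cell cannot be told apart.

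The choice ended within a smooth run of values. The last 3 probes inside the limit were DQ743986, DQ620514 and DQ607662, with mean centred log2 signals of 7.87, 7.85 and 7.84. The first 3 outside it were DQ752880, DQ623288 and DQ616753, at 7.83, 7.82 and 7.81. The brightest probe, DQ610113, had 12.15, so the 100 probes spanned more than 4 log2 units.

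All 100 probes lay far above the negative control spots. The lowest member signal on an array was 9892, 5830 and 7527 intensity units on GK 1, 2 and 3 and 13709, 8724 and 6658 on Wistar 1, 2 and 3. The median of the 153 negative control spots was 2.10, 2.62 and 1.86 on the GK arrays and 2.95, 2.02 and 1.78 on the Wistar arrays. No member was saturated, and the brightest raw spot reached between 29.6% and 42.2% of the scanner ceiling. None of the 159 probes for other RNAs was as bright as the last member. The brightest of these, for the virus miRNA mcmv-miR-m01-1, was exceeded by 182 piRNA probes. Its mean centred log2 signal was 6.77, against 7.84 for the last member, and the probe for ppt-miR535a had 6.40. Both were detected on all 6 arrays, so some probes for other RNAs lay far nearer to the members than the negative control spots did. Which RNA bound a probe was not tested.

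DQ610113 was the brightest piRNA probe on each of the 6 arrays and DQ762484 the second on each. DQ610113 had 290295, 205025 and 246190 intensity units on GK 1, 2 and 3 and 319324, 270661 and 281874 on Wistar 1, 2 and 3. Its highest and lowest arrays differed by less than 1 log2 unit. DQ762484 had 172984, 159107 and 183902 units on the GK arrays and 215661, 189262 and 179602 on the Wistar arrays. DQ611922, the third, had 159304, 126668 and 146452 units in GK and 168203, 129648 and 117866 in Wistar. These signals are not yet scaled between arrays, so they do not show which strain had more. Below these, DQ617231, DQ614404, DQ614395 and DQ611605 had mean centred log2 signals of 11.10, 10.80, 10.64 and 10.62. DQ603342, DQ603343, DQ758726, DQ602429 and DQ608714, which complete the first 12, lay between 10.52 and 10.31.

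When the same rule was applied to the GK arrays alone, 92 of the 100 probes were kept, and on the Wistar arrays alone 92 as well. The GK list and the Wistar list had 85 probes in common. A single array kept 93, 84 and 87 of the 100 for GK 1, 2 and 3 and 90, 89 and 84 for Wistar 1, 2 and 3. The lowest place that any member took among the 7721 probes on an array was 208, by DQ623540 on Wistar 3. The probes that were among the 100 brightest on each of the 6 arrays numbered 62. With the deposited matrix of the authors in place of the scanner signal, 98 were kept.

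The 100 probes held a large part of the summed signal of the 7721 probes, and the share was higher on every GK array than on any Wistar array. They held 55.8%, 58.5% and 60.6% of it on GK 1, 2 and 3, and 53.9%, 53.3% and 49.6% on Wistar 1, 2 and 3. The share averaged 58.3% ± 2.41 over the GK arrays and 52.2% ± 2.34 over the Wistar arrays (SD, n = 3 each), a difference of 6.05 percentage points. The 2-sided exact permutation test gave p = 0.1, which is the smallest value that 3 against 3 samples allow, so the comparison cannot reach 0.05. A share does not change when an array is scaled by a constant. In scan 1, GK 1 at 55.8% lay above the 3 Wistar arrays, the highest of which was at 53.9%, and scan 2 held GK samples only. Without the 2 brightest members the difference was 6.42 points. The brightest 10 held 19.4% ± 1.12 in GK and 18.1% ± 0.91 in Wistar, groups that overlapped (exact permutation p = 0.3). DQ610113 alone held 3.94% ± 0.31 in GK and 3.93% ± 0.27 in Wistar. The next probes, down to rank 1000, held 32.7% ± 1.73 in GK and 37.7% ± 1.66 in Wistar.

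Which of the 100 probes differed between GK and Wistar islets was tested in a fit over all 11407 probes well above background on at least 3 arrays. The values were scaled log2 signals, the log2 processed signal minus the 75th percentile of its array over the 7795 probes detected on all arrays. Of the 100 probes, 0 passed an adjusted p of 0.05 with limma, beside 0.0438% of all tested probes (5 probes). The smallest adjusted p among the 100 was 0.292. At an unadjusted p under 0.05, 20 of the 100 were called, beside 10.8% of all tested probes and 10.1% of the always detected piRNA probes, and each of the 20 also differed by at least 1.5-fold. The unpaired test named in the authors' deposited table, run on the deposited matrix, called 0 members after Benjamini-Hochberg adjustment and 23 before it, beside 6.19% of the 18419 probes of that matrix. None of the differences below passed the adjusted threshold, and they are given as values.

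A looser criterion joined the unadjusted threshold of 0.05 with a minimum of 1.5-fold, and 20 of the 100 probes met it, beside 10.7% of all tested probes and 9.92% of the always detected piRNA probes. Of the 20, 18 had higher values in GK, beside 7.91% of all tested probes and 7.4% of the always detected piRNA probes. The other 2 had lower values, beside 2.77% and 2.53%. On 35 of the 100 probes all GK arrays lay above all Wistar arrays, beside 12.5% of all tested probes and 13.7% of the always detected piRNA probes. On 5 all GK arrays lay below all Wistar arrays, beside 5.33% and 5.92%. The split between higher and lower moved with the scaling. It was 11 and 3 with the median of the 7721 probes, beside 4.69% higher and 5.27% lower over all tested probes. Quantile normalization gave 11 and 4, beside 3.46% and 5.29%, and normexp background correction also gave 11 and 4, beside 1.88% and 1.36%. The normexp values carry an added offset of 50 units, which shrinks the folds of dim probes more than those of the members. At an unadjusted p under 0.05 without the fold limit, 11.3% of all tested probes were called there, so the normexp shares are not a like background for the members. The deposited matrix gave 11 and 4 as well, beside 2.88% and 4.75% of its probes. With no scaling the split was 7 and 6, beside 2.06% and 8.95%. It was 1 and 4 when the percentile came from every non-control probe, beside 1.46% and 9.64%, so the total of 5 lay below the share of all tested probes. Members without overlap numbered 25 higher and 9 lower in GK with normexp, beside 8.33% and 9.999% of the always detected piRNA probes. With the deposited matrix they numbered 20 and 7, beside 7.67% and 10.2%. The count of 20 members fell to 9 without GK 3, 12 without GK 2 and 13 without Wistar 2, beside 5.74%, 5.24% and 6.36% of the probes tested there. All 20 kept their sign under the 6 scaling alternatives. Where an alternative shifts each array by a constant, the fold limit fixed this beforehand, since the shifts were smaller than 1.5-fold. Of the 100 probes, 26 were positive and 29 negative throughout, and 45 changed sign in at least 1 of them.

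The median log2 difference of the members, GK minus Wistar, was 0.29, against 0.14 over the always detected piRNA probes and 0.17 over all tested probes. It was 0.41 for ranks 1 to 20, 0.32 for ranks 21 to 50 and 0.07 for ranks 51 to 100, and -0.04 from there to rank 1000. It was above 0 for 71 of the 100, beside 63.3% of all tested probes and of the always detected piRNA probes. These values depended on the scaling. With quantile normalization the medians in the same order of ranks were 0.06, 0.03, -0.07 and 0.05, and with normexp they were 0.05, 0.04, -0.06 and 0.03. Under both, the probes below the 100, down to rank 1000, had a median no lower than that of the members, which stood at 0.018 and 0.031. Both settings give probes of equal rank equal values, so medians near 0 for the brightest ranks follow in part by construction. DQ762484, the second on each array, differed by -0.00013 with quantile normalization and -0.00018 with normexp. With no scaling the members stood at -0.10 and the always detected probes at -0.24. Within a strain, arrays differed by a median SD of 0.28 log2 units for the 100 probes and 0.34 for the always detected piRNA probes, and the median 95% interval of a member's difference reached 0.64 log2 units to each side.

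For each of the 12 brightest probes the 95% interval of the strain difference included 0. The largest of their differences was 0.48, for DQ602429. DQ610113 had scaled log2 signals of 10.51, 10.41 and 10.76 in GK and 10.39, 10.43 and 10.45 in Wistar, and the arrays overlapped. Its difference was 0.14 with a 95% interval from -0.39 to 0.67 (limma adjusted p = 0.787). DQ762484 had 9.76, 10.04 and 10.34 in GK and 9.82, 9.91 and 9.80 in Wistar, with a difference of 0.21 (interval -0.38 to 0.79). DQ611922 had 9.64, 9.71 and 10.01 in GK and 9.46, 9.36 and 9.19 in Wistar, and here the arrays did not overlap. Its difference of 0.45 had an interval from -0.11 to 1.01 (limma adjusted p = 0.468). DQ617231 showed the smallest difference of the first 12, at 0.06 (interval -0.48 to 0.60). With intervals of this width, equal levels in both strains are not shown.

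The smallest p-values with higher values in GK belonged to DQ626089, DQ743986, DQ603795, DQ758892, DQ731643 and DQ615008. DQ626089 had scaled log2 signals of 8.13, 8.76 and 8.75 in GK and 7.51, 7.10 and 7.20 in Wistar. All 3 GK arrays lay above all 3 Wistar arrays, with a log2 difference of 1.28 (SE 0.28, limma adjusted p = 0.292), or 2.42-fold. DQ743986 had 6.56, 6.87 and 6.95 in GK and 5.92, 5.59 and 5.38 in Wistar, a difference of 1.16 (SE 0.26). DQ603795 had 7.61, 8.25 and 8.25 in GK and 6.94, 6.88 and 6.60 in Wistar, a difference of 1.23 (SE 0.28). GK 1 was the lowest GK array in these 3 probes, and in the 3 that follow. DQ758892 had 7.69, 8.21 and 8.23 in GK and 7.09, 6.80 and 6.73 in Wistar, a difference of 1.17 (SE 0.26). DQ731643 had 6.95, 7.49 and 7.52 in GK and 6.44, 6.13 and 6.15 in Wistar, a difference of 1.08 (SE 0.26). DQ615008 had 6.24, 7.18 and 7.19 in GK and 5.84, 5.47 and 5.39 in Wistar, a difference of 1.30 (SE 0.33). None of these 6 probes had arrays that overlapped between the strains.

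With the 75th-percentile scaling of the fit, 29 of the 100 probes had lower values in GK and 71 had higher values. With no scaling 59 were lower, and 74 were lower when the percentile came from every non-control probe. DQ753113 had scaled log2 signals of 6.92, 6.10 and 6.24 in GK and 7.44, 7.33 and 7.77 in Wistar, without overlap. Its log2 difference was -1.10 (SE 0.30, limma adjusted p = 0.398). DQ748091 had 6.36, 5.27 and 5.73 in GK and 6.72, 6.53 and 6.998 in Wistar, a difference of -0.96 (SE 0.33). In both, GK 1 lay closer to the Wistar arrays than GK 2 and GK 3 did. DQ765750 and DQ618585 also had all GK arrays below all Wistar arrays, with differences of -0.52 and -0.44. In DQ765750 the strains were barely apart, with 7.391 on GK 3 and 7.399 on Wistar 3. For DQ609706 and DQ620092 the strains overlapped, since GK 1 lay among or above the Wistar arrays. Their differences from the Wistar mean were -0.03 and 0.10 on GK 1 and -1.14 and -0.76 on GK 2 and GK 3.

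The 2 scans gave different sizes. GK 1 exceeded the Wistar mean, all in scan 1, by a median of 0.10 over the 98 probes measured there, and GK 2 and GK 3 in scan 2 exceeded it by 0.39. The sign was the same in both for 65 of the 98. DQ626089 was 0.86 above the Wistar mean on GK 1 and 1.48 above it on GK 2 and GK 3, and DQ753113 stood at -0.59 on GK 1 and -1.35 on GK 2 and GK 3. The scan as a block sets GK 1 alone against the Wistar arrays for the 98 probes measured on GK 1. For DQ761831 and DQ745962, whose GK 1 and Wistar 1 spots were left out as outliers, the block drops out. Their differences, 0.89 and 0.90, set GK 2 and GK 3 against Wistar 2 and Wistar 3. With the scan as a block, 7 of the 100 met the looser criterion, beside 3.66% of all tested probes. In scan 1 alone 0 did, beside 3.42%, and the lone GK array is assumed to vary like the Wistar arrays. Within scan 2 no comparison exists, because it holds GK samples only.

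The strain difference of a member moved with the place of its probe on the array. The array has 532 rows, which were divided into 4 bins of 100 rows and a last bin of the remaining rows. From the first rows to the last, the median log2 difference of the members was 0.09, -0.03, 0.34, 0.43 and 0.73, over 15, 28, 17, 17 and 23 probes. For the always detected piRNA probes the same bins gave 0.08, 0.07, 0.11, 0.14 and 0.29. Across the 100 members the difference correlated with the row at a Spearman rho of 0.51 and a Pearson r of 0.47, against 0.14 and 0.11 across 7720 always detected probes. These points share the same 6 arrays, so the correlations are descriptions. Of the 18 members counted as higher in GK by the looser criterion, 17 lay in rows 301 to 532, which hold 40 of the 100 members. In those rows 10.5% of the always detected piRNA probes met that criterion upward, against 5.07% in rows 1 to 300. The 6 probes with the smallest p upward lay in rows 368 to 521.

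Copies of the same probe at different places showed no such trend, but at signals below those of the members. On the array 61 of the probes for other RNAs were detected in all of their 10 spots on all arrays. Set against the mean of its own probe, the median GK minus Wistar difference of their spots was 0.001, -0.02, 0.01, -0.03 and -0.01 in the same bins of rows. Of the 159 probes for other RNAs, none was as bright as the last member and 12 were brighter than the piRNA probe of rank 1000. These copies therefore cannot show whether a trend exists at the members' signal. The signal before the scanner software's correction for position gave the members 0.09, -0.03, 0.32, 0.43 and 0.66. In an alternative chosen after the data were seen, a smooth trend over rows, fitted to the always detected piRNA probes, was removed from each array. By the looser criterion 16 members were then counted as higher and 2 as lower. The share of all tested probes under this alternative is not given here, so these counts cannot be read as an excess. DQ626089 then had a difference of 1.18 and DQ743986 of 0.93. The part that the place on the array has in the strain differences of these members was not tested further, and probes in different rows also differ in sequence, which was not used here.

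Some members stood apart on a single array. DQ623540 had scaled log2 signals of 7.93, 8.56 and 8.79 in GK and 7.66, 7.46 and 5.04 in Wistar, so Wistar 3 lay 2.42 log2 units below the nearest array. Its difference of 1.71 (SE 0.69) became 0.87 without Wistar 3. DQ740601 had 6.01, 5.27 and 6.22 in GK and 6.76, 5.47 and 7.78 in Wistar, with Wistar 3 at 1.03 above the nearest array, and its difference of -0.84 became -0.28 without it. DQ627814 had 7.07, 6.62 and 7.01 in GK and 7.12, 5.60 and 5.27 in Wistar, where Wistar 1 lay with the GK arrays. These 3 had the largest SD between arrays of a strain among the 100. DQ602690, DQ616721 and DQ733946 had the smallest, at 0.08, 0.09 and 0.10 log2 units. With arrays centred on the median of the 7721 probes, GK 3 held the highest value for 55 of the 100 members and Wistar 3 the lowest for 41.

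Among the members, 6 pairs had consecutive accession numbers, and the pairs differed in how closely they moved together over the arrays. DQ602399 had scaled log2 signals of 6.78, 6.89 and 6.73 in GK and 6.38, 6.36 and 7.56 in Wistar. Its neighbour DQ602400 had 7.22, 7.39 and 7.30 in GK and 6.92, 6.98 and 8.08 in Wistar, so both were highest on Wistar 3. The probes lie far apart, in rows 479 and 124. DQ603342 had 8.77, 9.10 and 9.35 in GK and 8.52, 8.31 and 9.12 in Wistar. DQ603343 had 8.75, 9.16 and 9.19 in GK and 8.47, 8.28 and 9.26 in Wistar, again with Wistar 3 above the other Wistar arrays. DQ613603 and DQ613604, with differences of 0.86 and 0.78, both had all GK arrays above all Wistar arrays. After centring each probe on its own mean, the 2 probes of a pair differed by a root mean square of 0.06 log2 units for DQ602399 and DQ602400, 0.09 for DQ603342 and DQ603343 and 0.11 for DQ613603 and DQ613604. It was 0.16 for DQ611604 and DQ611605, 0.19 for DQ623340 and DQ623341 and 0.27 for DQ614394 and DQ614395. Pearson correlations over the 6 arrays were taken with each array centred on the median of the always detected piRNA probes. They can differ from correlations of the scaled log2 signals given above. In those scaled signals DQ614394 and DQ614395 both had higher means in GK, with differences of 0.28 and 0.16. With the median centring, DQ614394 and DQ614395 had a Pearson r of -0.44, and DQ611604 and DQ611605 reached 0.64. The other pairs lay between 0.84 and 0.99 with that centring. These are descriptions over shared arrays. The median root mean square over the 6 pairs was 0.13, against 0.41 over all 4950 pairs of members and 0.41 over 1342 such pairs among the always detected piRNA probes. The sequences were not used here, so whether the probes of a pair overlap in sequence was not tested.

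Members were spread unevenly over the accession numbers. Accessions starting with DQ6 made up 53 of the 100, against 39.2% of the always detected piRNA probes and 38.2% of all piRNA probes. Of the 132 neighbouring accessions of members that have a probe, 37.1% were detected on all arrays, against 27.9% of the neighbours of all always detected piRNA probes. The 37.1% includes both probes of each of the 6 pairs above, which the brightness rule required to be always detected.

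The authors' deposited table of piRNAs at a fold of at least 2 lists 6 of the 100 members, or 6% of them, against 1.57% of the always detected piRNA probes. In the authors' deposited table DQ602039 has an upward fold of 2.49, DQ615008 of 2.30, DQ743986 of 2.07 and DQ603795 of 2.01. DQ753113 has a downward fold of 2.44 and DQ748091 of 2.02 in the authors' deposited table. That table was drawn from these same arrays, so it is not independent evidence. DQ602039 had scaled log2 signals of 6.88, 8.06 and 7.94 in GK and 6.57, 6.15 and 5.59 in Wistar in the fit used here, without overlap. Its difference was 1.53 (SE 0.41, limma adjusted p = 0.390), of which GK 1 alone gave 0.78 and GK 2 and GK 3 gave 1.90. For 2 members, DQ761831 and DQ745962, the scanner software marked the spots on GK 1 and Wistar 1 as outliers, so their fits rest on 2 arrays of each strain. DQ745962 is the member counted as higher that lies outside rows 301 to 532. Both are named for this mark, after their values were seen.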

How the data were processed

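Each array was read with Agilent Feature Extraction 11.0.1.1, per the file headers. The deposited processed signal intensity had its background subtracted and a position trend removed by that software, per the file headers, with no step that sets arrays against each other. Because Cy3 was ligated to total RNA, per the labels' protocols, any RNA with a free 3' end could be labelled. The deposited matrix holds log2 values normalized by the authors with a method not given in the sources used here. Folds (a ratio) and p-values of an unpaired t-test stand in a further table deposited by the authors, per the file headers.

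Spots of a probe were averaged on the log2 scale after spots marked as outliers were left out. Strain was the single term of a linear fit with moderated variances (limma 3.58.1, R 4.3.3), with Benjamini-Hochberg adjustment. The fit recovered known changes in simulated arrays that were independent, had no scan or row effect, and held changes larger than any member's. That check does not cover smaller changes or the overlap of strain and scan. The number of arrays limits the precision. Shares of summed signal were compared by exact permutation over samples. Probes were named by a fixed rule: the 12 brightest, those at the limit, the 6 smallest p in each direction, the 3 largest and 3 smallest SD, the members in the deposited table, and consecutive accessions, where 6 pairs tied and all are given. The 100 probes, the lists and the rule were chosen with earlier results of these data known. Probe sequences and genome positions were not used here.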

Additional observations from a re-analysis of the deposited data

How the results depend on the processing

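No setting brought a member past the adjusted threshold. Beside 20 members at the looser criterion, there were 5 when the percentile came from every non-control probe, beside 11.1% of all tested probes, and 13 with no scaling, beside 11.01%. There were 7 with the scan as a block, beside 3.66%, and 0 in scan 1 alone, beside 3.42%. Leaving out each array gave 9 to 29, the lowest when GK 3 was left out and the highest when GK 1 was, which makes scan and strain the same split, beside 5.74% and 22.1% of all probes tested there. It was 12 without GK 2, and 13 with Wistar 2 left out. Beside a median difference of 0.29, it was -0.19 when the percentile came from every non-control probe, -0.10 with no scaling, 0.018 with quantile normalization, 0.031 with normexp, 0.047 with the deposited matrix and 0.10 with the scan as a block and in scan 1. Scaling by a constant moves each fully measured probe alike, so those turns follow by construction. Quantile normalization, also part of the normexp setting, gives equal ranks equal values, so medians near 0 there follow in part by construction. For the deposited matrix and the scan settings the cause was not tested. Leaving out each array gave a median of 0.21 to 0.39, a difference in signal share of 4.71 to 7.31 points and a list of 97 to 98 kept members. The brightness rule kept 84 to 100 members under its other alternatives, and 62 members were among the 100 brightest on each of the 6 arrays.

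No pairing by replicate number was seen: same-numbered arrays correlated at -0.12, -0.003 and 0.05 in their deviations from the strain means. Arrays of different number correlated at -0.18 to 0.12. This does not show that same-numbered samples were handled apart. With the replicate number as a block, 0 members passed, 14 met the looser criterion, beside 11.1% of all tested probes, the median stayed at 0.29, and the share differed by 6.05 points (exact sign-flip p = 0.25). By the rule that chose them, all members lay well above background on every array, so dim signal does not limit these values.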
